A study of Mus musculus with 9 samples.

Results

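The interferon-stimulated genes examined here are 34 genes that mouse cells switch on in response to interferons. They were taken by symbol from a list, with 1 RefSeq entry per symbol, the entry with the highest summed normalised counts in the WT and Aire-KO pair. All 34 were found among the 23004 symbols (30930 RefSeq entries) of the series, and 32 of them were also in the count files of the actinomycin D series. Mx1 and Mx2 were read in the sorted pairs only.

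Interferons are secreted signals of antiviral defence. Type I interferons (alpha, beta and relatives) bind the receptor Ifnar1/Ifnar2, type III interferons (lambda) bind Ifnlr1/Il10rb, and both lead through the kinases Jak1 and Tyk2 to a complex with Stat2 and Irf9 that binds the interferon-stimulated response element (ISRE) of target promoters. Type II interferon (gamma) binds Ifngr1/Ifngr2 and acts on promoters that hold the gamma-activated site (GAS). In the thymus, medullary epithelial cells are known to make interferons without infection.

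RNA was sequenced from medullary thymic epithelial cells (mTEC), the thymus cells that present self-antigens to developing T cells, in 9 libraries of 1 library per group. mTEChi, with high MHC class II on the surface, and mTEClo, with low MHC class II, were sorted from pooled thymi of B6 mice. The sort took cells without CD45 and Ly51, that is neither haematopoietic nor cortical epithelial. One pair compared WT mTEChi with mTEChi of Aire-/- mice on the B6 background, which lack the transcriptional regulator Aire, and another compared mTEChi with mTEClo of the same WT mice (Exp2 in the labels). A WT mTEChi library labelled ActinomycinD-treated for 0 h was the reference of a series in which WT mTEChi were kept in MEM medium with 1 uM actinomycin D, a blocker of transcription, for 1.5, 3, 6 or 12 h. The 5 untreated libraries were made with a TruSeq kit and the 4 treated ones with a SMARTer kit, so that treatment and kit cannot be told apart in any comparison with 0 h. Per the study's methods, thymi for the sorts came from mice aged 4 weeks.

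The files held between 74161592 and 195444567 reads on RefSeq entries in the untreated libraries, and 21124165, 13953047, 11295960 and 1746825 reads at 1.5, 3, 6 and 12 h. Levels below are CPM, that is reads per 1000000 of those totals, and folds within a pair use the normalised counts as deposited. Aire was read at 259, 804 and 444 CPM in the 3 untreated WT mTEChi libraries (WT mTEChi, 0 h and Exp2, the order used throughout), at 661 CPM in the library labelled Aire-KO and at 14.4 CPM in mTEClo. The level under the Aire-KO label lay within the WT range but above that of its own pair partner. The table of this pair names its columns only A and B, and A was taken as Aire-KO from the direction of the fold in the study's code. Every direction given for this pair rests on that assignment, which the Aire reads do not check. Reads on exons outside a deleted part check nothing, so "the library labelled Aire-KO" is written throughout. In mTEClo, all 6 mTEClo markers were above, and none of the 10 mTEChi markers was above, all 3 WT mTEChi libraries.

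The promoters of the genes give the sequence side of the group. RefSeq promoter windows (300 bases, from 250 before the start site; GRCm38.p6 table, placed in mm9 by exact match) were found for 25 of the 34 genes. The ISRE was searched as GAAANNGAAA and the GAS as TTCNNNGAA, on both strands. Since GAAANNGAAA repeats a GAAA unit, matches of it can overlap each other, and the ends of both motifs share letters, so that an ISRE and a GAS match can overlap at their ends. An ISRE match was present in 14 of the 25 genes (56%), against 3.99% of the 27025 genes with a promoter in the table. A GAS match was present in 6 of the 25 (24%), against 9.55% of all genes. The ISRE share was 21 of 42 (50%) in a separate list of further interferon-stimulated genes and 11 of 20 (55%) in the interferon ligand genes. All 11 of those ligand genes were interferon alpha genes or Ifnab. No match was found in the interferon alpha genes Ifna13 and Ifna16, or in Ifnb1, Ifnl2, Ifnl3, Ifng, Ifnk, Ifne or Ifnz. A match is a run of letters in this window, not a measured binding site. The 11 genes searched without an ISRE match were Oasl1, Oasl2, Irf1, Irf7, Irf9, Ifi35, Ifi44, Ifit2, Dtx3l, Trim25 and Xaf1. Not in the table were Dhx58, Mx1, Mx2, Oas2, Parp9, Parp14, Rtp4, Usp18 and Zbp1.

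**Figure D1:**
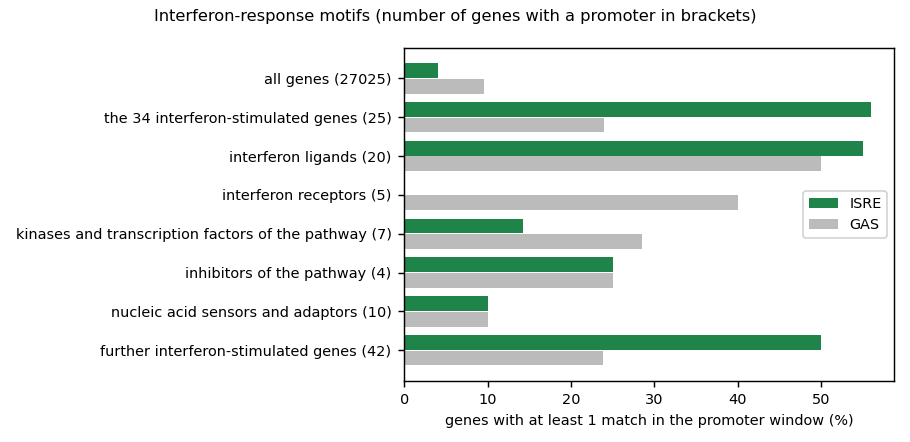
The plot gives, for each gene list, the percent of genes whose promoter window holds at least 1 ISRE match (green) or GAS match (grey), with the number of genes searched in brackets. The 34 interferon-stimulated genes (25 searched) reached 56% for the ISRE and all genes 3.99%.

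Shown here are 5 promoters of the genes on which the results turn, 5′ to 3′ in the direction of the gene, with ISRE matches in capitals. Isg15 holds 3 overlapping matches, Ifit1 and Ifit3 hold 2 each and Rsad2 holds 1. Oasl1, which differed from the group in mTEClo, holds none. Neither do Irf7, Irf9, Ifi44 and Xaf1, which were higher in mTEClo like most of the group, whereas Ifit1 was not higher there.
Isg15 (mm9 chr4:155574878-155575177, reverse strand): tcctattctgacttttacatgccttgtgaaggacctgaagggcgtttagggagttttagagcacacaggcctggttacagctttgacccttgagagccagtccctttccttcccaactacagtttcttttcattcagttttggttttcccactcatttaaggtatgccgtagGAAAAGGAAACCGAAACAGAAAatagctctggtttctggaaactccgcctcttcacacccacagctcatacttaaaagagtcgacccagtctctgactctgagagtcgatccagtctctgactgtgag
Rsad2 (mm9 chr12:27141268-27141567, reverse strand): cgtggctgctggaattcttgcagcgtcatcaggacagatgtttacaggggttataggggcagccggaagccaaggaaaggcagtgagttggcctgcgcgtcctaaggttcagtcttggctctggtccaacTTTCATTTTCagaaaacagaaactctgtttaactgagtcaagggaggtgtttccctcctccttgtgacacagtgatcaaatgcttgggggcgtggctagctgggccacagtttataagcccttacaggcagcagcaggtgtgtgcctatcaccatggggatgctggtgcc
Ifit3 (mm9 chr19:34657769-34658068, forward strand): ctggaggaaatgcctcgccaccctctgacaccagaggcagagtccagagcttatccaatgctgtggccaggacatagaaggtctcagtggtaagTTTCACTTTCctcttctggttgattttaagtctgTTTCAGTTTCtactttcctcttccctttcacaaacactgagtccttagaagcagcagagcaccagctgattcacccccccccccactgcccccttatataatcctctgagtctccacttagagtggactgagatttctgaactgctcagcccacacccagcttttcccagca
Ifit1 (mm9 chr19:34715129-34715428, forward strand): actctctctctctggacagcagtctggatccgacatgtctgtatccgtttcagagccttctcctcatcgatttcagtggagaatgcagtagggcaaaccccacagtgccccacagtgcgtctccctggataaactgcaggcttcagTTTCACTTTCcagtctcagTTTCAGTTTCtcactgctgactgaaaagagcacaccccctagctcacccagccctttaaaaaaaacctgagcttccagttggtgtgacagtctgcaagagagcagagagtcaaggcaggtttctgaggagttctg
Oasl1 (mm9 chr5:115372999-115373298, forward strand): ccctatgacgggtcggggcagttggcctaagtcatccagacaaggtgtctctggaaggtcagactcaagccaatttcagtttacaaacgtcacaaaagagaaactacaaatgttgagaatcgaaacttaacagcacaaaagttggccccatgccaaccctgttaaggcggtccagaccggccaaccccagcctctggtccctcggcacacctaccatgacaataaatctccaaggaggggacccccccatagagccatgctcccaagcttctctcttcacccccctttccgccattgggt

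In mm9 (GENCODE vM1 positions), several of the genes lie in clusters of related genes. Ifit2 (chr19:34625184-34650909), Ifit3 (chr19:34658021-34663221) and Ifit1 (chr19:34715361-34724499) are neighbours. Oas2 (chr5:121180342-121199862), Oas3 (chr5:121203107-121227670) and Oas1a (chr5:121346265-121357536) form another cluster, apart from Oasl2 (chr5:115346943-115362243) and Oasl1 (chr5:115373249-115387924). Reads of such related genes could be split by the counting, and the counting without strand cannot part overlapping genes.

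Levels between genes were compared per kilobase of exon (RPKM) in the 3 untreated WT mTEChi libraries. Irf1, a transcription factor induced by interferon gamma, was highest at 121 ± 11.5 RPKM (mean ± SD, n = 3). Usp18, a protease that removes Isg15 from proteins and dampens receptor signalling, followed at 113 ± 12.5, and Isg15 itself, a ubiquitin-like modifier, at 91.2 ± 30.7. Each of the first 30 genes in this order had a range over the 3 libraries that overlapped that of the next. Oas3 and Oas2, enzymes that make the 2′-5′ oligoadenylate activator of RNase L, closed the order at 3.89 ± 0.985 and 1.19 ± 0.359 RPKM, and this last step was the only one without overlap. Between the 3 WT libraries the highest over the lowest CPM had a median of 1.58-fold and reached 2.99-fold (Ifit1). It was over 2-fold for 10 of the 32 genes. The 0 h library held the highest value for 20 of the 32 genes and the Exp2 library the lowest for 21.

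The first comparison asked how the genes differ between WT mTEChi and the library labelled Aire-KO. Of the 34 genes, 12 were at least 2-fold higher in WT mTEChi and none was at least 2-fold lower, with a median of 1.67-fold. Over all RefSeq entries with at least 10 summed normalised counts, 27.3% were at least 2-fold higher and 7.16% at least 2-fold lower, with a median of 1.02-fold. Among entries read at least as highly as the lowest of the 34 genes, these shares were 13.1% and 6.94%. The 12 of 34 stand at 35.3%, and no set was tested. With 1 library per group a fold carries only a counting interval (95%, exact) and no replicate check. That interval lay above 1 for 30 of the genes and below 1 for 3. How many of all entries have an interval that excludes 1 was not counted. At these depths small folds do so too, as for Irf1 at 1.18-fold (1.16 to 1.20).

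Oas2 and Rsad2 had the widest folds. Oas2 was read at 5.04, 5.71 and 3.04 CPM in the 3 WT libraries and at 0.545 CPM in the library labelled Aire-KO. Rsad2 (viperin), an enzyme that makes a chain-terminating nucleotide, was read at 22.6, 29.5 and 32.5 CPM in WT and at 3.06 CPM there. Both stood below every WT library. Within the pair Oas2 was 7.88-fold higher in WT (6.21 to 10.1) and Rsad2 6.31-fold (5.69 to 7.0).

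Isg15 was read at 74.6, 88.8 and 43.4 CPM in WT and at 16.0 CPM in the library labelled Aire-KO, a fold of 3.97 (3.79 to 4.17) within the pair. Irf7, the factor that amplifies type I interferon transcription, was read at 137, 99.7 and 54.8 CPM in WT and at 33.3 CPM there, 3.51-fold (3.4 to 3.63). Oasl1, a relative of the OAS enzymes known to hold back Irf7 translation, was read at 104, 168 and 78.9 CPM in WT and at 30 CPM there, 2.94-fold (2.84 to 3.05). For these 3 genes the groups did not overlap, although the WT values themselves spread by more than 2-fold. Ifit2 and Ifit3 encode proteins that bind viral RNA and block its translation. Ifit2 was read at 19.3, 29.6 and 25.2 CPM in WT and at 4.88 CPM in the library labelled Aire-KO, 3.37-fold (3.09 to 3.68). Ifit3 was read at 32.3, 36.7 and 27.1 CPM in WT and at 9.97 CPM there, 2.76-fold (2.60 to 2.94). Oas3 was 2.78-fold higher in WT, and the surface tether of budding virus Bst2 2.14-fold. Rtp4, Ifi44 and the immunity-related GTPase Igtp completed the 12 at 2.06-fold to 2.11-fold.

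Other members went the other way or stayed near 1. Ifit1, which recognises the cap of viral RNA, was read at 71.6, 214 and 110 CPM in WT and at 121 CPM in the library labelled Aire-KO. It was 1.99-fold higher in that library than in its WT partner, but lay within the spread of the 3 WT libraries. Ifi35 was read at 87.8, 81.1 and 75.1 CPM in WT and at 107 CPM there, and was the only gene above all 3 WT libraries, 1.43-fold over its pair partner. Usp18 was read at 197, 180 and 224 CPM in WT and at 181 CPM there, a difference within the WT spread. Dhx58, a regulator of the RIG-I family, was read at 28.0, 46.2 and 33.6 CPM in WT and at 24.7 CPM there, 1.03-fold higher than WT by normalised counts with an interval that includes 1. For these low folds the scaling matters, since setting the libraries to equal totals moved each log2 fold of this pair by 0.23 towards WT. Under that scaling Usp18 and Dhx58 lay higher in WT. Ifit1 and Ifi35 kept their direction.

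**Figure D2:**
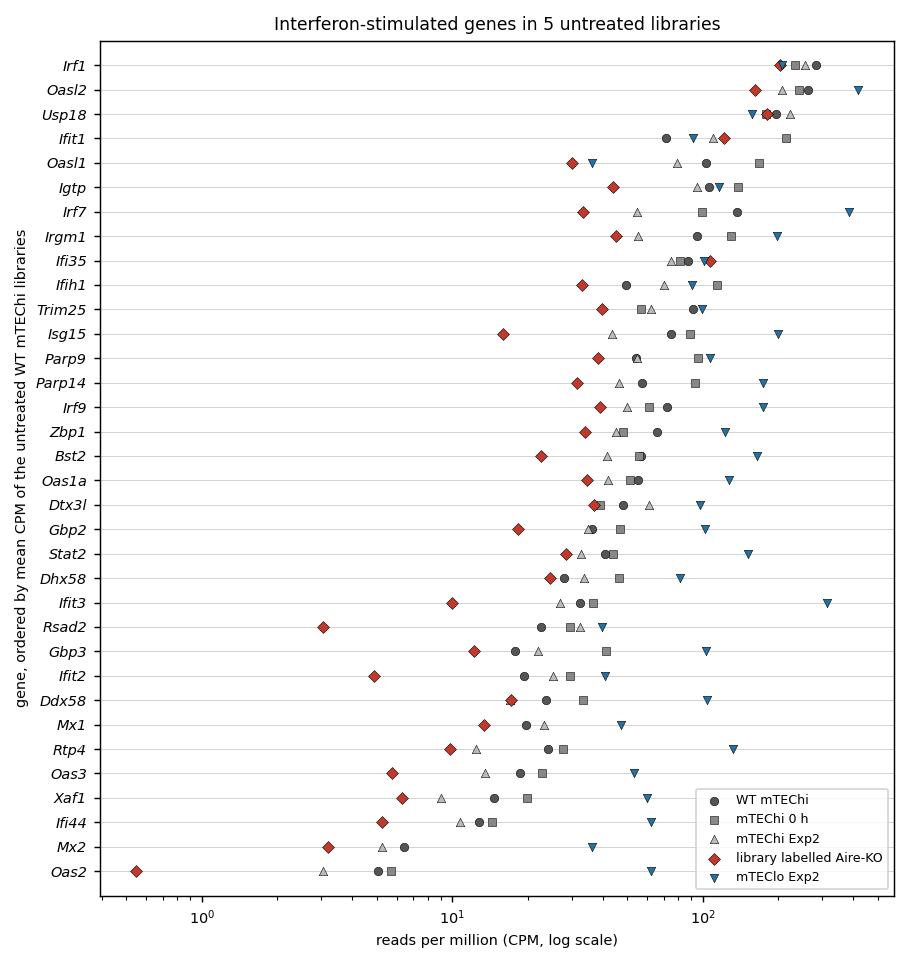
The plot gives CPM on a log axis for each of the 34 genes in the 5 untreated libraries, ordered by the mean of the WT mTEChi libraries (grey); Mx1 and Mx2 have no 0 h value. The library labelled Aire-KO (red diamonds) lay below all 3 WT libraries for 28 of 32 genes, and mTEClo (blue triangles) above all 3 for 26 of 32.

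Set against the spread of all 3 WT libraries, the library labelled Aire-KO was below every one of them for 28 of the 32 genes and above every one for 1. Over all entries the shares were 45.9% below and 11.0% above, and among entries at or above the lowest of the genes 29.8% and 16.7%. The genes that lay within the WT range were Ifit1, Usp18 and Ddx58 (RIG-I, a sensor of viral RNA). In the edgeR quasi-likelihood test, where the single library is assumed to vary as the 3 WT libraries do, 2 of the 32 genes were called and both were lower. Over all 24703 entries tested, 8.21% were called lower and 0.081% higher. Rsad2 differed by a log2 change of -2.92 ± 0.58 (SE, edgeR adjusted p = 0.0257, range over the alternatives 1.88e-05 to 0.0927). Oas2 differed by -2.78 ± 0.64 (edgeR adjusted p = 0.0398, alternatives 0.000306 to 0.0702). Of the 32 genes, 7 had an unadjusted p under 0.05, and the other 5 of them were Isg15, Ifit2, Ifit3, Oas3 and Oasl1. The calls rest on single WT libraries. Without the Exp2 library no gene was called, without WT mTEChi 1 (Rsad2), and without 0 h 3 (Rsad2, Ifit2 and Oas2). DESeq2 called 4 (those 3 and Isg15). DESeq2 and edgeR without 0 h also called more of all entries than the main fit did, so their larger counts came with a higher overall rate. In the main fit and in each of these alternatives, the share of the genes called lower was below that of all entries. The share of all entries with an unadjusted p under 0.05 was not counted. These labels name no separate animals beyond pooled thymi, so that p-values measure the spread between libraries. The 3 WT libraries come from separate experiments, so this spread is one between experiments. The fit does not use the pairing of a single library with its own WT partner.

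The genes upstream were read alongside. Of the 21 interferon ligand genes 17 were below all 3 WT libraries in the library labelled Aire-KO and none was above, and 12 of the 21 had no read there. Over all entries 45.9% were below and 11.0% above, and 13.6% had no read there. Most of these ligand genes had few reads in any library. Ifnb1 (interferon beta) was read at 1.35, 3.23 and 2.84 CPM in WT and at 0.0909 CPM there (13 reads against 141 in the pair), 12.7-fold (7.18 to 24.4). It was the only ligand called, at a log2 change of -4.45 ± 0.88 (edgeR adjusted p = 0.0247, alternatives 2.91e-05 to 0.0383). Ifnl2 was read at 2.80, 8.67 and 2.90 CPM in WT and at 0.832 CPM there. Its neighbour Ifnl3, also an interferon lambda gene, was read at 2.30, 7.96 and 2.97 CPM in WT and at 0.713 CPM there. Both were below every WT library but missed the threshold (edgeR adjusted p = 0.175 and 0.161). Reads of such near-identical copies could be split by the counting, so their separate levels are uncertain. Ifng was read at 3.56, 1.92 and 3.33 CPM in WT and at 2.73 CPM there, within the WT range. Ifnk had 20 reads in WT mTEChi and 5 in its partner, and was below all 3 WT libraries. The interferon alpha genes had between 0 and 64 reads in each WT library and at most 10 in the library labelled Aire-KO, too few for separate folds. Ifne and Ifnz had at most 15 reads in each WT library.

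**Figure D3:**
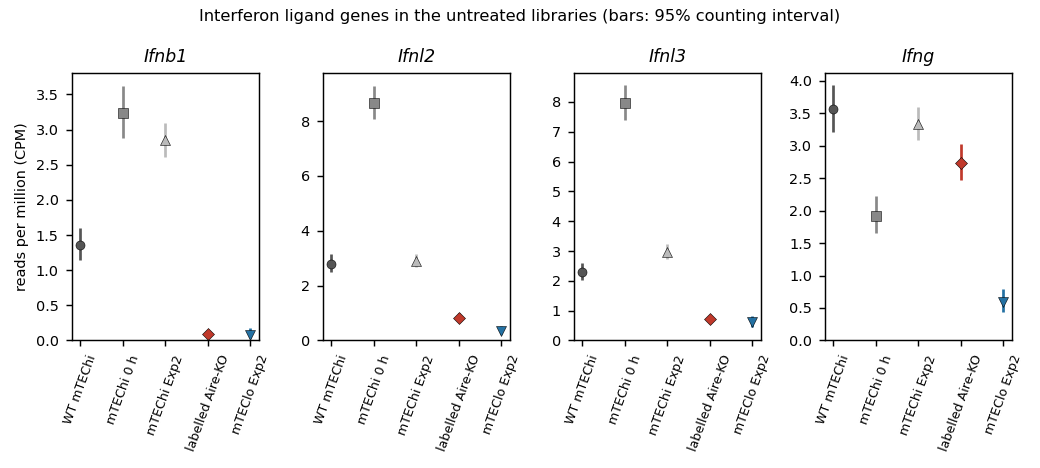
Each panel gives the CPM of 1 interferon gene in the 5 untreated libraries with the 95% interval of counting error, on its own axis from 0. Ifnb1, Ifnl2 and Ifnl3 were low in both the library labelled Aire-KO and mTEClo, while Ifng was lowest in mTEClo, at 0.593 CPM.

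The receptors and signalling genes moved little in this pair. None of the 6 receptor genes reached 2-fold, with a range from 0.643-fold (Ifngr2) to 1.14-fold (Ifnar2). Of the 8 kinase and factor genes, only Irf8, a factor of myeloid cells also read in mTEC, passed 2-fold, at 570 CPM in the library labelled Aire-KO against 296, 217 and 358 CPM in WT. For the others described, WT over that library ranged from 0.527-fold (Jak1) and 0.638-fold (Irf5) through Tyk2, Irf2 and Irf3 to 0.974-fold (Jak2). Among the 5 inhibitors Socs3 was above all 3 WT libraries and Ptpn6 below, and Socs1, Pias1 and Ptpn2 were within the WT range. None of these genes, nor any of the 12 sensor and adaptor genes, was called by edgeR. Among the sensors, Sting1, which relays the sensing of DNA, was read at 157 CPM there against 186, 199.9 and 194 CPM in WT. Of the 12 sensor and adaptor genes, 9 were below all 3 WT libraries, against 45.9% of all entries.

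Of the 53 further interferon-stimulated genes, 8 (15.1%) were at least 2-fold higher in WT and none lower, with a median of 1.25-fold. That share was below the 27.3% of all entries and close to the 13.1% of entries at or above the lowest of the 34 genes. The most highly read were not among those 8 except Ly6a, a surface antigen, at 101 CPM in the library labelled Aire-KO against 394, 183 and 146 CPM in WT. Ly6e was read at 956 CPM there against 1713, 533 and 900.0 CPM in WT, Ifitm3, which blocks viral entry, at 464 CPM against 667, 522 and 358 CPM, and the chemokine Cxcl10 at 444 CPM against 399, 314 and 654 CPM. Those 3 lay within the WT range. edgeR called 2 of the 51 tested, both lower in the library labelled Aire-KO, a share below the 8.21% of all entries. They were Ifit1bl1 (log2 change -4.35 ± 0.65, edgeR adjusted p = 0.0115, alternatives 1.71e-10 to 0.0135), a neighbour of Ifit1, and Oas1c (-2.77 ± 0.63, edgeR adjusted p = 0.0385, alternatives 0.000329 to 0.105).

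Most markers of several other cell types also lay lower in the library labelled Aire-KO. Over all entries 45.9% lay below all 3 WT libraries there, and lists of 4 to 9 markers are short to set against that share. Of 9 dendritic cell and macrophage markers, 8 were below all 3 WT libraries in the library labelled Aire-KO, and their median CPM was 1.5 there against 14.0 to 14.2 in WT. Their summed level, most of it Lyz2, was 354 CPM there and 283 to 682 CPM in WT, and no marker was at 0. edgeR called 4 of them lower (Adgre1, C1qa, Itgam and Itgax). Of 5 plasmacytoid dendritic cell markers, 4 were below all 3 WT libraries, with summed levels of 46.3 CPM there and 82.3 to 181 CPM in WT. Below all 3 WT libraries were also 3 of 4 B cell markers (summed 26.9 CPM there and 23.3 to 33.4 CPM in WT), 5 of 7 thymocyte markers (25.7 CPM and 33.1 to 43.9 CPM) and 3 of 5 endothelial markers (24.7 CPM and 33.7 to 54.6 CPM). The B cell receptor subunit Cd79a was called lower (log2 change -3.03 ± 0.66, edgeR adjusted p = 0.0334, alternatives 0.00103 to 0.0853). Fibroblast markers gave 1 of 5 below and 1 above. In such bulk libraries fewer cells of a type and less RNA per cell cannot be told apart, and the part of these cells in the result was not tested.

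The second comparison asked how the genes differ between mTEChi and mTEClo of the same mice. Of the 34 genes, 23 were at least 2-fold higher in mTEClo and 1 was at least 2-fold higher in mTEChi. The median gene was 3.14-fold higher in mTEClo, and 18 were at least 3-fold higher there. Over all entries 20.2% were at least 2-fold higher in mTEClo and 18.7% in mTEChi, with a median of 1.01-fold towards mTEChi. Among entries at or above the lowest gene the shares were 11.4% and 12.5%. The counting interval lay on the mTEClo side for 30 of the genes and on the mTEChi side for 4, which was not counted over all entries either. Equal totals moved the log2 folds of this pair by only 0.07.

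Oas2 again had the widest fold, at 62.2 CPM in mTEClo against 5.04, 5.71 and 3.04 CPM in the WT mTEChi libraries, 21.5-fold (19.7 to 23.4) over its pair partner. Ifit3 was read at 315 CPM in mTEClo, 12.2-fold (11.9 to 12.6) over mTEChi. Rtp4, a chaperone that transports receptors to the surface and also acts on viruses, was read at 132 CPM against 24.2, 27.8 and 12.4 CPM, 11.2-fold (10.7 to 11.7). All 3 stood far above every mTEChi library. Irf7 was read at 385 CPM in mTEClo, 7.38-fold (7.22 to 7.54) over mTEChi. Isg15 was read at 200 CPM there, 4.85-fold (4.72 to 4.98) over mTEChi. The components of the ISRE-binding complex were higher as well. Stat2 was read at 152 CPM in mTEClo against 41.0, 43.9 and 32.7 CPM, and Irf9 at 174 CPM against 72.2, 61.0 and 50.1 CPM. Oasl2, another OAS relative, was read at 419 CPM in mTEClo against 263, 243 and 207 CPM. Irgm1, a GTPase of vacuole defence, was read at 199 CPM against 95.1, 129 and 55.4 CPM. None of these 4 overlapped the mTEChi range.

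Among the sensors of viral RNA, Ddx58 was 6.42-fold, Dhx58 2.55-fold and Ifih1 (MDA5) 1.36-fold higher in mTEClo than in its partner. Mx1 and Mx2, GTPases that trap viral particles, were 2.14-fold and 7.27-fold higher. Of the guanylate-binding proteins, which attack the vacuoles of pathogens, Gbp2 was 3.08-fold and Gbp3 4.90-fold higher. Parp9, Parp14 and their partner Dtx3l, which modify proteins by ADP-ribose and ubiquitin, were 2.05-fold, 3.96-fold and 1.67-fold higher. Oas1a was 3.19-fold, Oas3 4.15-fold, Xaf1 (a regulator of apoptosis) 6.95-fold and the nucleic acid sensor Zbp1 2.88-fold higher. Trim25, the ligase that activates RIG-I, was 1.68-fold and Bst2 4.16-fold higher. Rsad2 and Ifit2, among the widest folds of the Aire pair, were only 1.28-fold and 1.71-fold higher in mTEClo.

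Oasl1 stood against the group. It was read at 36.2 CPM in mTEClo against 104, 168 and 78.9 CPM in the WT mTEChi libraries, 2.07-fold higher in mTEChi. Usp18 (158 CPM in mTEClo) was 1.35-fold higher in mTEChi, Irf1 (207 CPM against 284, 235 and 256 CPM) 1.17-fold, and Ifit1 (91.6 CPM in mTEClo) 1.15-fold. Oasl1, Usp18 and Irf1 lay below all 3 WT mTEChi libraries, while Ifit1 lay within them. Of the 12 genes at least 2-fold higher in WT mTEChi in the first pair, 8 were also at least 2-fold higher in mTEClo in the second, as the plot of both pairs shows. This share is close to that of all 34 genes, of which 23 (67.6%) were at least 2-fold higher in mTEClo.

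**Figure D4:**
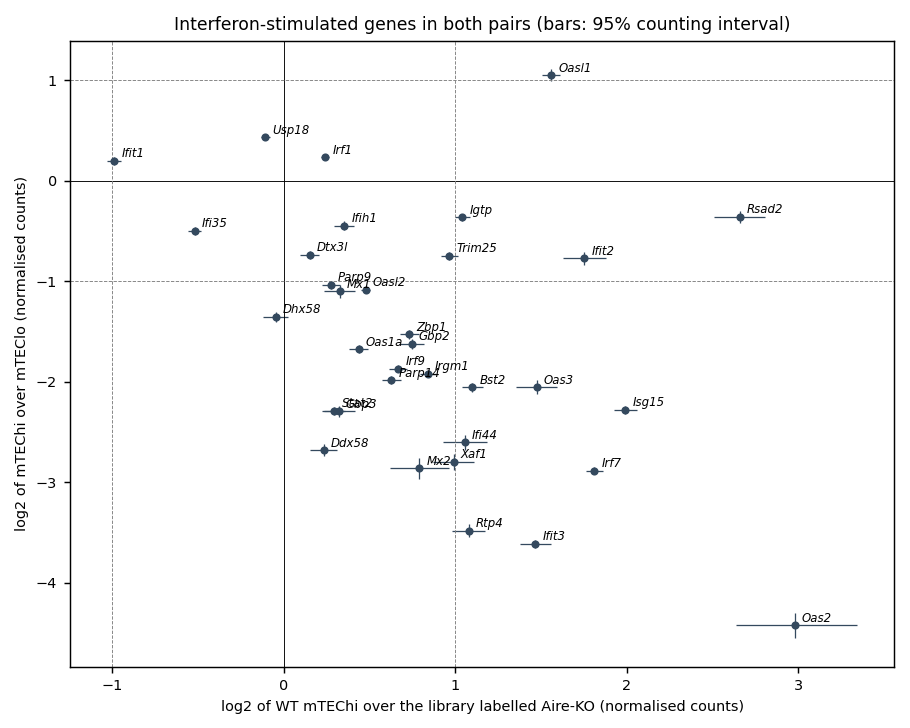
Each point is 1 gene, with the log2 of WT mTEChi over the library labelled Aire-KO on the x axis and the log2 of mTEChi over mTEClo on the y axis; bars are 95% counting intervals and dashed lines mark 2-fold. Most genes lie at the lower right, with Oas2 at 2.98 and -4.42, and Oasl1 is the only gene past 2-fold on the upper side.

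Against the spread of all 3 WT mTEChi libraries, mTEClo was above every one of them for 26 of the 32 genes and below every one for 3. Over all entries the shares were 27.6% above and 36.4% below, and among entries at or above the lowest gene 20.1% and 37.9%. edgeR called 5 of the 32 genes, all higher in mTEClo, against 1.44% of all entries called higher and 1.9% called lower. They were Oas2 (log2 change 3.91 ± 0.48, edgeR adjusted p = 0.0375, alternatives 5.78e-09 to 0.0404), Ifit3 (3.45 ± 0.43, adjusted p = 0.0375, alternatives 1.36e-08 to 0.0423), Rtp4 (2.77 ± 0.51, adjusted p = 0.0407, alternatives 0.000115 to 0.0839), Ifi44 (2.45 ± 0.43, adjusted p = 0.0375, alternatives 0.000159 to 0.102) and Stat2 (2.11 ± 0.44, adjusted p = 0.0468, alternatives 0.00135 to 0.180). Ifi44, an antiviral protein of little known function, was read at 62.3 CPM in mTEClo against 12.8, 14.4 and 10.8 CPM. A further 15 genes had an unadjusted p under 0.05. By DESeq2 16 genes were called. edgeR without the 0 h library also gave 16, and without the Exp2 library 2 (Ifit3 and Oas2). For mTEClo too, DESeq2 and edgeR without 0 h called more of all entries than the main fit did. How many of all entries had an unadjusted p under 0.05 was not counted. This edgeR test and the one on the library labelled Aire-KO share the same 3 WT libraries.

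The ligands were mixed in mTEClo. Of the 21 ligand genes, 11 (52.4%) were above all 3 WT mTEChi libraries and 5 below, against 27.6% and 36.4% of all entries, and their median log2 change over the 18 tested by edgeR was 0.87. The 11 were 9 interferon alpha genes, Ifnab and Ifnz, each with 5 to 65 reads in mTEClo. Ifnb1 was read at 0.0809 CPM in mTEClo (6 reads), and was called lower at a log2 change of -4.75 ± 0.93 (edgeR adjusted p = 0.0421, alternatives 7.66e-05 to 0.0588). Ifnl2 was read at 0.364 CPM, Ifnl3 at 0.607 CPM and Ifng at 0.593 CPM in mTEClo, each below all 3 WT mTEChi libraries without passing the threshold. The interferon alpha genes were read at up to 0.876 CPM (Ifna14, 65 reads). Of the receptors, Ifnlr1 was the only one called, at 15.2 CPM in mTEClo against 2.63, 3.01 and 2.15 CPM (log2 change 2.70 ± 0.46, edgeR adjusted p = 0.0375, alternatives 0.000139 to 0.0709). Ifngr1 was read at 98.4 CPM against 45.2, 74.3 and 36.0 CPM, and Ifngr2 at 80.3 CPM against 118, 112 and 188 CPM. Ifnar1 and Il10rb lay within the WT mTEChi range and Ifnar2 above it. Socs3, which blocks Jak kinases, was called higher in mTEClo (809 CPM against 226, 152 and 176 CPM, edgeR adjusted p = 0.0417, alternatives 0.00106 to 0.0911). Tlr9, a receptor for DNA, was called lower (1.87 CPM against 19.2, 47.3 and 27.6 CPM, edgeR adjusted p = 0.0407, alternatives 1.34e-07 to 0.0534).

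Of the 53 further interferon-stimulated genes, 27 were at least 2-fold higher in mTEClo and 5 in mTEChi, with a median of 2.04-fold towards mTEClo. The 27 stand at 50.9%, against 20.2% of all entries. edgeR called 4 of the 51 tested, all higher in mTEClo (Slfn5, Ifit3b, Phf11d and Ifi27l2a), each at an edgeR adjusted p = 0.0375 (alternatives from 1.80e-07 to 0.0552). Ifit3b and Ifit3 are near-identical copies whose reads the counting could split.

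Markers of other cells differed in both directions in mTEClo. Over all entries 27.6% lay above all 3 WT mTEChi libraries and 36.4% below. Of 5 fibroblast markers 4 were above all 3 WT mTEChi libraries in mTEClo, with a summed level of 510.0 CPM there and 49.5 to 144 CPM in WT mTEChi. All 5 endothelial markers were above all 3, with summed levels of 216 CPM and 33.7 to 54.6 CPM. Opposite to the genes, 8 of 9 dendritic cell and macrophage markers and all 4 B cell markers were below all 3 WT mTEChi libraries. Thymocyte markers gave 4 of 7 above and 3 below, and plasmacytoid dendritic cell markers 2 of 5 each way. No fibroblast or endothelial marker was at 0 in either group, and the part of these cells in the result was not tested.

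The third comparison followed the RNA of the genes after transcription was blocked. From 1.5 h to 12 h, where both libraries come from the same kit, 5 of the 32 genes were at least 2-fold higher and 4 at least 2-fold lower, with a median log2 change of 0.05. Over all entries 11.5% were at least 2-fold higher and 36.1% at least 2-fold lower, with a median of -0.43. Those entries needed only 10 reads over the series, and many were read lowly. Before that minimum, 31.5% of entries had no read at 6 h, 26.9% at 12 h and 5.18% at 1.5 h. Of the 32 genes, 1 had no read at 12 h. The values over all entries given here are not matched to the level at which the genes were read. Levels are shares of the reads left in each library, so a higher CPM need not mean more RNA. Against 0 h and across the change of kit, the median log2 change of the genes over the 4 treated times in order was -0.41, -0.39, -0.26 and -0.35, and that of all entries -0.13, -0.18, -0.54 and -0.60.

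The genes split. Ifit1 was read at 167, 164, 123 and 60.7 CPM at 1.5, 3, 6 and 12 h, a fold of 0.364 from 1.5 h to 12 h (0.297 to 0.441). Its neighbour Ifit3 was read at 23.2, 22.2, 55.0 and 69.3 CPM, 2.99-fold (2.43 to 3.66). The pair of neighbours on chromosome 19, both with 2 ISRE matches, thus lay on opposite sides of 1. Ifit2 was read at 17.7, 21.5, 7.97 and 4.01 CPM, and only 7 reads stood behind the last value. Rsad2 was read at 20.8, 30.2, 64.5 and 6.30 CPM, with no steady course and 11 reads at 12 h. Oas2 was read at 4.88 and 6.45 CPM at 1.5 and 3 h and had no read at 6 and 12 h. With the floor of 3 reads, Oas2 was at least 18.4-fold lower at 6 h and at least 2.84-fold lower at 12 h than at 1.5 h. That floor covers counting error only, and 31.5% of all entries had no read at 6 h, so it is no bound on the RNA. The exact 95% interval of 12 h over 1.5 h, which also covers the counting error at 1.5 h, reached up to 0.441, a weaker limit.

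Rtp4 was read at 12.5, 9.68, 15.2 and 38.9 CPM, 3.13-fold higher at 12 h than at 1.5 h (2.36 to 4.10). Gbp3 was read at 25.2, 24.0, 48.0 and 63.5 CPM, 2.52-fold (2.03 to 3.10). Irf9 was read at 36.5, 46.7, 89.3 and 75.0 CPM, 2.05-fold (1.69 to 2.48). Zbp1 completed the 5 at 2.02-fold. Isg15 and Irf7 were each 1.87-fold higher at 12 h. The other highly read genes changed less, with Oasl2 at 1.03-fold, Ifi35 at 0.900-fold, Irgm1 at 1.38-fold, Irf1 at 0.641-fold and Usp18 at 0.595-fold. Oasl1 was at 0.683-fold and Dhx58 at 1.97-fold.

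**Figure D5:**
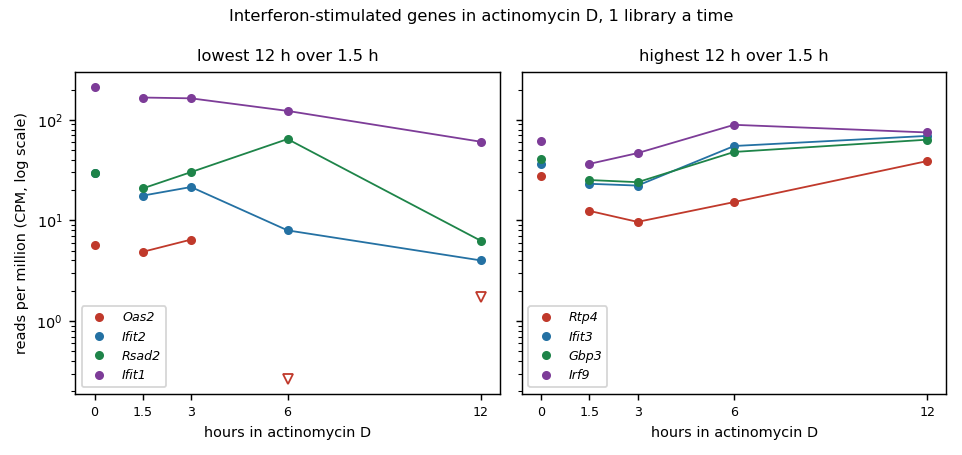
CPM on a log axis against hours in actinomycin D for the 4 genes with the lowest (left) and the 4 with the highest (right) 12 h over 1.5 h; 0 h is not joined because its kit differs, and open triangles are the floor of 3 reads where Oas2 had none. Ifit1 goes from 167 to 60.7 CPM and Ifit3 from 23.2 to 69.3 CPM.

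A slope over the hours was fitted to the 4 treated libraries by edgeR. It called none of the 32 genes and 0.0% of 20652 entries at an adjusted p under 0.05, while 8 of the genes had an unadjusted p under 0.05 and DESeq2 called 1 (Ifit1). An unadjusted p under 0.05 was not counted over all entries, and DESeq2 called 398 of 24299 entries. Without the 6 h library edgeR called 5 (Ifit1 lower with time, and Ifit3, Isg15, Gbp3 and Rtp4 higher). In that fit 1874 of 20452 entries were called. The 12 h library was the shallowest, and 1 read there stands for 0.572 CPM, more than in any other library.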

How the data were processed

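RNA was sequenced in 9 libraries of mouse mTEC. Per the study's methods, reads were aligned to mm9 with Bowtie 1.0.0 and counted with bedtools per RefSeq entry without strand. The deposited pair tables held counts divided by 1 DESeq size factor per library (a signal normalised by the authors), and dividing by the smallest step gave whole reads for 100% of 30794 values per library (tolerance 0.1). The actinomycin D files held the authors' raw counts. Columns of the authors' fold changes and p-values were not used. In the Aire pair, the tables name columns A and B, and A was taken as Aire-KO from the fold direction in the study's code.

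CPM used total reads. Log2 changes over time used 0.5 reads added per library. Folds within a pair used the deposited normalised counts with a minimum of 10 summed. Exact 95% intervals and the floor of 3 reads cover counting error only. edgeR 4.0.16 (TMM, filterByExpr, quasi-likelihood, Benjamini-Hochberg over all entries, 0.05) was fitted to the 5 untreated libraries and to the 4 treated ones, with DESeq2 1.42.0 as an alternative. On the recovered reads it called 2049 and 826 entries for the library labelled Aire-KO and for mTEClo. The fits were tested on simulated counts. Values are printed in every library for the 8 genes read most highly, the 4 with the largest fold each way in each pair, the 4 with the largest fall and rise over time, and genes called by edgeR. Members and lists were chosen with earlier results of these data known. Promoters came from RefSeq (GRCm38.p6). For 1 gene of the signalling list, values are not reported here.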

Additional observations from a re-analysis of the deposited data

How the results depend on the processing

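The directions of the medians of both pairs kept under each alternative run. For the Aire pair, a 3-fold limit left 5 genes higher in WT, and with the 0 h library in place of WT mTEChi, at equal totals, the count at 2-fold was 19 and the median log2 fold 1.40. For the MHC-II pair, a 3-fold limit left 0 genes higher in mTEChi, WT mTEChi in place of Exp2 gave a median log2 fold of -1.26, and 0 h in its place gave 2 genes higher and a median of -1.15. These replacements were chosen after seeing the data, as was the background over entries at or above the lowest gene. DESeq2 called 4 genes for the library labelled Aire-KO, 16 for mTEClo and 1 for the slope. Leaving out each library in turn gave 0 to 3, 2 to 16 and 0 to 5 called genes; the cause was not tested. The calls over all entries differed between these fits as well. For the library labelled Aire-KO, the share of the genes called was below that of all entries in each of them. For mTEClo it was above. The counts outside the WT range, below and above together, were 29 to 31 in both comparisons without each WT library. Leaving out a library can only narrow the range for any entry, and the share of all entries outside it was not counted. At 1.5 h, TMM scaling gave a median change of -0.29. No paired analysis was possible because the groups compared share at most 1 replicate number. With 1 library per group, depth sets counting error only: it is small for the pairs and large at 12 h, where levels of lowly read genes could not be told from 0.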
